A study of Mus musculus with 40 samples.

Results

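The T-box family was followed through 9 of its members, *Tbx1*, *Tbx2*, *Tbx3*, *Tbx4*, *Tbx5*, *Tbx6*, *Tbx15*, *Tbx18* and *Tbx20*, chosen by gene symbol among 26411 genes counted in whole mouse embryos. The samples were 24 libraries of embryos at E9.5, 4 for each of 6 genotypes, with 1 embryo per library and 17 litters in all. The comparisons asked which members depend on KAT6A, on KAT6B or on the acetyltransferase activity of either protein. Wild-type (WT) embryos carried neither mutation. *Kat6a-/-* embryos were homozygous for the *cfd* allele, a null that lacks exons 3 to 7, and *Kat6b-/-* embryos were homozygous for the *dec* allele, a null that lacks exons 2 to 12. *Kat6aE/E* embryos were homozygous for G656E in KAT6A and *Kat6bE/E* embryos for G577E in KAT6B, point mutations made by CRISPR in C57BL/6J zygotes that replace a glycine of the acetyltransferase domain with glutamic acid. *Kat6aE/E;Kat6bE/E* embryos carried both point mutations. All alleles were on a C57BL/6 background and were carried in the germline.

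T-box proteins bind DNA through a conserved domain, the T-box, and are known for setting regional identity in the mesoderm, heart, limbs and pharynx of the embryo. *Tbx2* and *Tbx3* encode mainly repressors, whereas *Tbx1*, *Tbx5* and *Tbx6* encode mainly activators, and several members are sensitive to gene dosage. KAT6A and KAT6B are paralogous histone acetyltransferases of the MYST family that work in complexes with BRPF proteins at active genes.

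On the mouse GRCm39 assembly, *Tbx1* lies at chr16:18399729-18409421 on the minus strand and *Tbx5* at chr5:119970733-120023284 on the plus strand. Some members are neighbours. *Tbx2* (chr11:85723377-85734115) and *Tbx4* (chr11:85776887-85806923) are 42.8 kb apart, and *Tbx3* (chr5:119806298-119822797) lies 147.9 kb from *Tbx5*. *Tbx6* lies at chr7:126380655-126384732 and *Tbx15* at chr3:99147697-99294185, both on the plus strand. *Tbx18* (chr9:87584851-87613338) and *Tbx20* (chr9:24629434-24685599) are on the minus strand. The 300 bases before the canonical GENCODE start follow for *Tbx1* and *Tbx5*, the members called lower in *Kat6a-/-* embryos, and for *Tbx20*, which was not called in any comparison. The sequences read 5′ to 3′ along the gene's strand, and capitals mark CpG dinucleotides. The *Tbx1* window is chr16:18405720-18406019, the *Tbx5* window chr5:119972428-119972727 and the *Tbx20* window chr9:24685600-24685899.
Tbx1: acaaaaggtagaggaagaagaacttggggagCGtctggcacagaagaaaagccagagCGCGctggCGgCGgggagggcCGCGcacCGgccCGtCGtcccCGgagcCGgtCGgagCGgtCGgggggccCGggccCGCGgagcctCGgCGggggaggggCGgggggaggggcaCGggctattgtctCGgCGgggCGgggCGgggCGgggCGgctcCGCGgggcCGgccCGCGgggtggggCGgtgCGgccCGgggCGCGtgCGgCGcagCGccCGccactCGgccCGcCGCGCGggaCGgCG
Tbx5: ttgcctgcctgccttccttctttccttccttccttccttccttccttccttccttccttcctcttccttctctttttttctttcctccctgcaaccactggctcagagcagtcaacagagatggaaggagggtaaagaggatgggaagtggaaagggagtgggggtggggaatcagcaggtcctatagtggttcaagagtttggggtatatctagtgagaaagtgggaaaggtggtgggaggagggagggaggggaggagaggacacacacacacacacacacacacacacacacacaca
Tbx20: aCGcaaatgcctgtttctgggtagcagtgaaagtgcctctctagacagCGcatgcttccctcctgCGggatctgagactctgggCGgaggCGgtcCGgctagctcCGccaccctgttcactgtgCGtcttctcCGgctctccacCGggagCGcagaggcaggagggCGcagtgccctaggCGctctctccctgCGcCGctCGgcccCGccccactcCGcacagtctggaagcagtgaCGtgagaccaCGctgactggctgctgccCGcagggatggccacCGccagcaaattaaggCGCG

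The windows of the 2 called members stood at opposite ends of the CpG scale. The *Tbx1* window held 49 CpG dinucleotides and 81.0% GC, more CpG than 99.6% of the 21603 windows of the same length before protein-coding genes, whose median was 9. The *Tbx5* window held 0 CpG and 52.0% GC, and the *Tbx20* window 24 CpG and 66.0% GC. *Tbx1* and *Tbx5* also have annotated transcripts that start further upstream, so these windows stand for the canonical start only. The T-box half-site AGGTGTGA, searched with its reverse complement TCACACCT, was found in 0 of the 9 members' windows and in 1.2% of all windows.

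The libraries held between 8402000 and 23339000 counted read pairs (median 15317000). All 9 members passed the filter on low counts, with 6 to 1161 read pairs per member and library. Before any comparison, 2 sets of libraries stood apart. In 4 libraries (WT replicate 4, *Kat6aE/E* replicates 2 and 4, *Kat6bE/E* replicate 3) the summed level of 8 posterior marker genes (*Cdx2*, *Cdx4*, *Msgn1*, *Hes7*, *Hoxa10*, *Hoxa11*, *Hoxc10* and *Hoxd12*, which mark the tail bud and hind body) was 6.68 to 15.5 CPM (counts scaled to a common library size), against 39.8 to 151 CPM in the other 20. In 3 libraries (*Kat6a-/-* replicate 2, *Kat6b-/-* replicates 2 and 3) *Xist*, the RNA of the inactive X chromosome, was at 527 to 755 CPM and the Y-linked genes *Ddx3y* and *Eif2s3y* summed to 0 to 0.199 CPM, although the study describes male embryos. A described difference of a member that leaving out either set moved by more than 1.5 times and by over 0.1 on the log2 scale is given with and without that set. The deleted exons could not be checked from whole-gene counts: *Kat6a* differed by -0.08 on the log2 scale in *Kat6a-/-* embryos (FDR = 0.716), and *Kat6b* was higher in *Kat6b-/-* embryos (0.41, FDR = 0.00441).

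In WT embryos, levels per kilobase of gene length (RPKM, mean ± SD, n = 4) placed *Tbx2* first at 11.6 ± 1.87. *Tbx3* followed at 9.52 ± 1.48, *Tbx1* at 7.71 ± 0.956, *Tbx5* at 5.09 ± 0.916, *Tbx20* at 4.87 ± 0.702 and *Tbx18* at 4.30 ± 0.809. *Tbx4* at 3.01 ± 2.07, *Tbx6* at 2.43 ± 2.21 and *Tbx15* at 1.18 ± 0.468 were the lowest. Of neighbours in this order, the ranges over libraries did not overlap for *Tbx1* and *Tbx5* only, and from *Tbx5* downward each gap was smaller than the larger SD. In a whole embryo a lower level can mean fewer cells of a type or less RNA per cell, and these cannot be told apart.

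**Figure D1:**
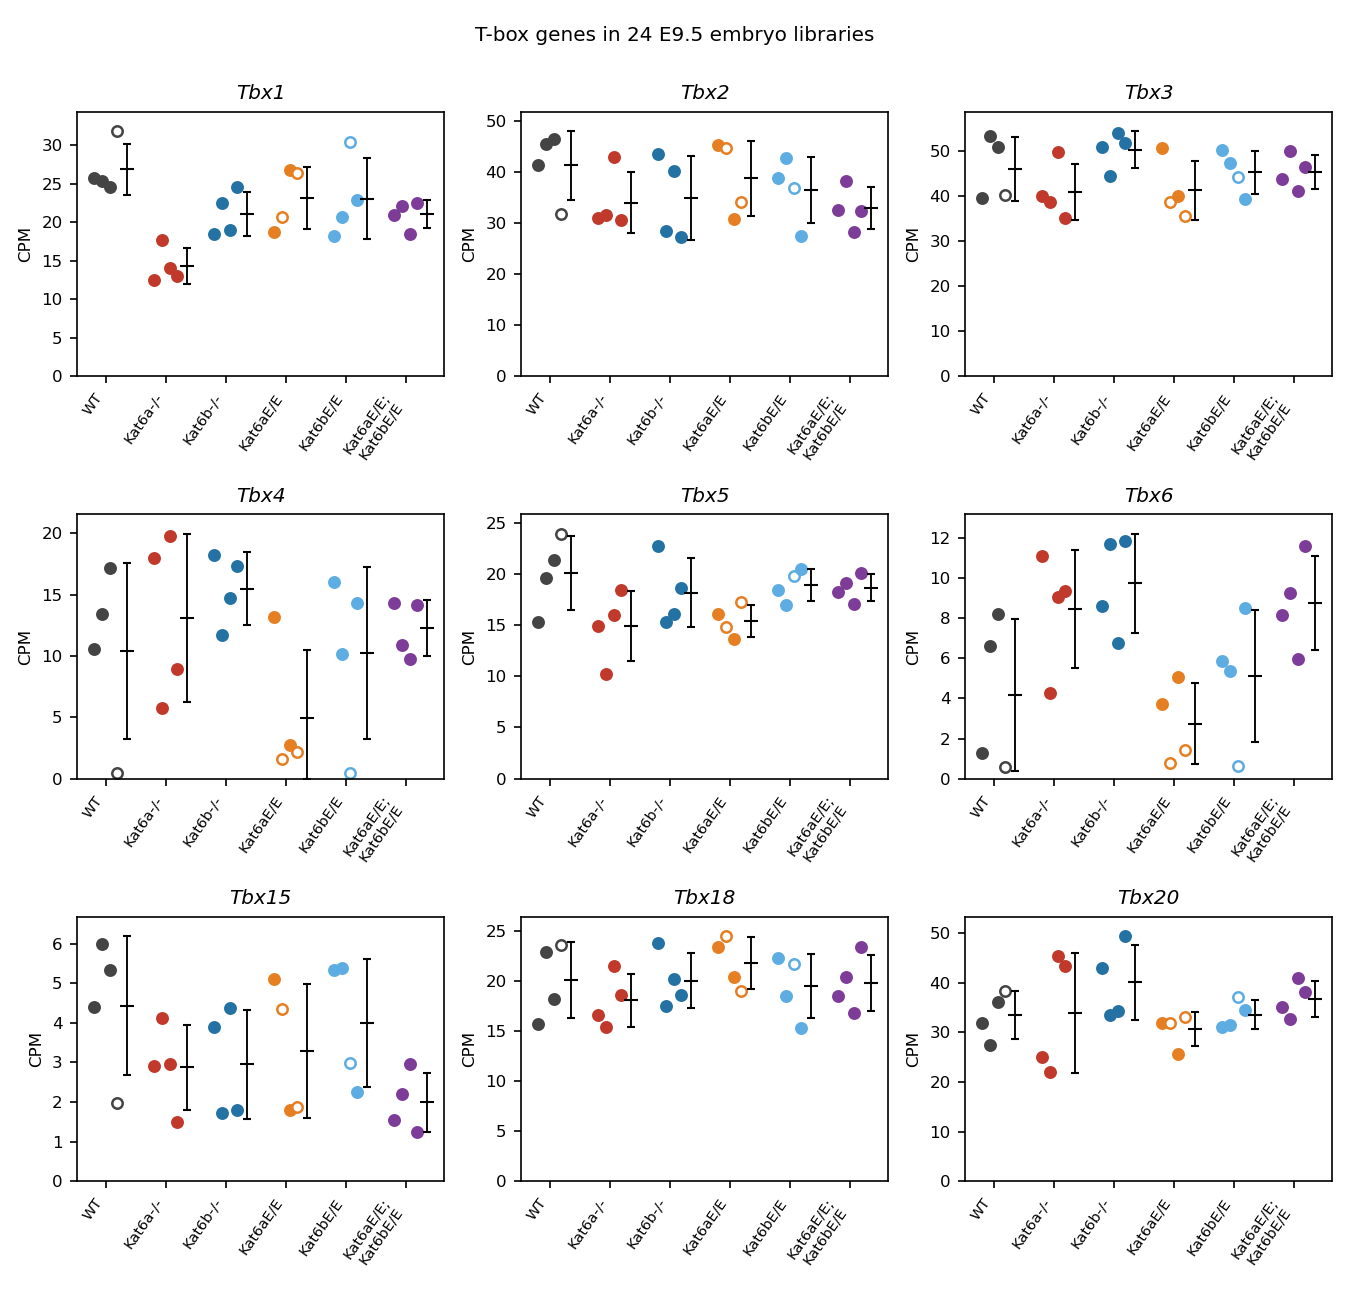
Level of each of the 9 T-box genes in every E9.5 library, as TMM-normalised CPM (y axis, each panel with its own scale) for the 6 genotypes (x axis), with 1 point per embryo, and a tick and line for the mean and SD of 4 libraries (SD line ended at 0). The 4 *Kat6a-/-* points for *Tbx1* (12.5 to 17.7 CPM) all lie below the 4 WT points (24.5 to 31.8 CPM), while the open points, the 4 libraries low in posterior markers, lie at the bottom of the *Tbx4* and *Tbx6* panels.

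The members were stable or variable to very different degrees across the 24 embryos. The ratio of the highest to the lowest library was 1.54 for *Tbx3*, 1.60 for *Tbx18*, 1.71 for *Tbx2*, 2.25 for *Tbx20*, 2.34 for *Tbx5* and 2.54 for *Tbx1*. It was 4.82 for *Tbx15*, 20.1 for *Tbx6* and 45.4 for *Tbx4*. In the comparison of *Kat6a-/-* with WT embryos the SEs were 0.09 to 0.19 for the first 6 of these members, and 0.24 for *Tbx15*, 0.48 for *Tbx6* and 0.51 for *Tbx4*.

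Differences are fitted log2 fold changes from 1 limma model over the 24 libraries, adjusted for 4 surrogate variables, with p-values adjusted by Benjamini-Hochberg over all genes tested (FDR). Loss of KAT6A lowered 2 of the 9 members at FDR < 0.05, *Tbx1* and *Tbx5*, and raised 0, where 2.64% of the 14183 genes tested were called and 1.38% were called lower. At an unadjusted p under 0.05, 5 of the 9 were lower (8.85% of all genes). In all, 7 of 9 had a log2 fold change under 0 (50.8% of all genes). The median of the 9 was -0.24, and that of all genes was -0.0025. Loss of KAT6B called 0 members, in a comparison that called 0.508% of genes, and 2 members (*Tbx1* and *Tbx5*) had an unadjusted p under 0.05 (12.1% of all genes).

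Neither single point mutation called a member. In *Kat6aE/E* embryos 0 members were called (0.275% of all genes), 3 (*Tbx1*, *Tbx5* and *Tbx15*) had an unadjusted p under 0.05 (10% of all genes), and 8 of 9 had a log2 fold change under 0, as had 50.3% of all genes. In *Kat6bE/E* embryos 0 members and 0 genes were called (0%), and 1 member, *Tbx1*, had an unadjusted p under 0.05, against 4.41% of all genes. In *Kat6aE/E;Kat6bE/E* embryos 0 members were called although 2.91% of all genes were, and 3 members (*Tbx1*, *Tbx2* and *Tbx15*) had an unadjusted p under 0.05 (18.2% of all genes). edgeR's quasi-likelihood test and DESeq2 also called 0 members in the *Kat6b-/-*, *Kat6aE/E* and *Kat6bE/E* comparisons. In the double mutant, edgeR's test with surrogate variables and DESeq2 each called 1, *Tbx15*. The study itself reported more calls at the same threshold. These were *Tbx1*, *Tbx5* and *Tbx15* lower in the double mutant, and *Tbx1*, *Tbx2*, *Tbx5* and *Tbx15* lower in *Kat6a-/-* embryos. Its filter kept a different number of genes, and the reason for the difference in calls was not tested. The counts over all genes depended on the surrogate variables, since without them 111 genes were called in *Kat6a-/-*, 14 in *Kat6aE/E* and 0 in *Kat6b-/-* and *Kat6aE/E;Kat6bE/E* embryos. The 5 comparisons share the 4 WT libraries, so they are not independent of each other.

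**Figure D2:**
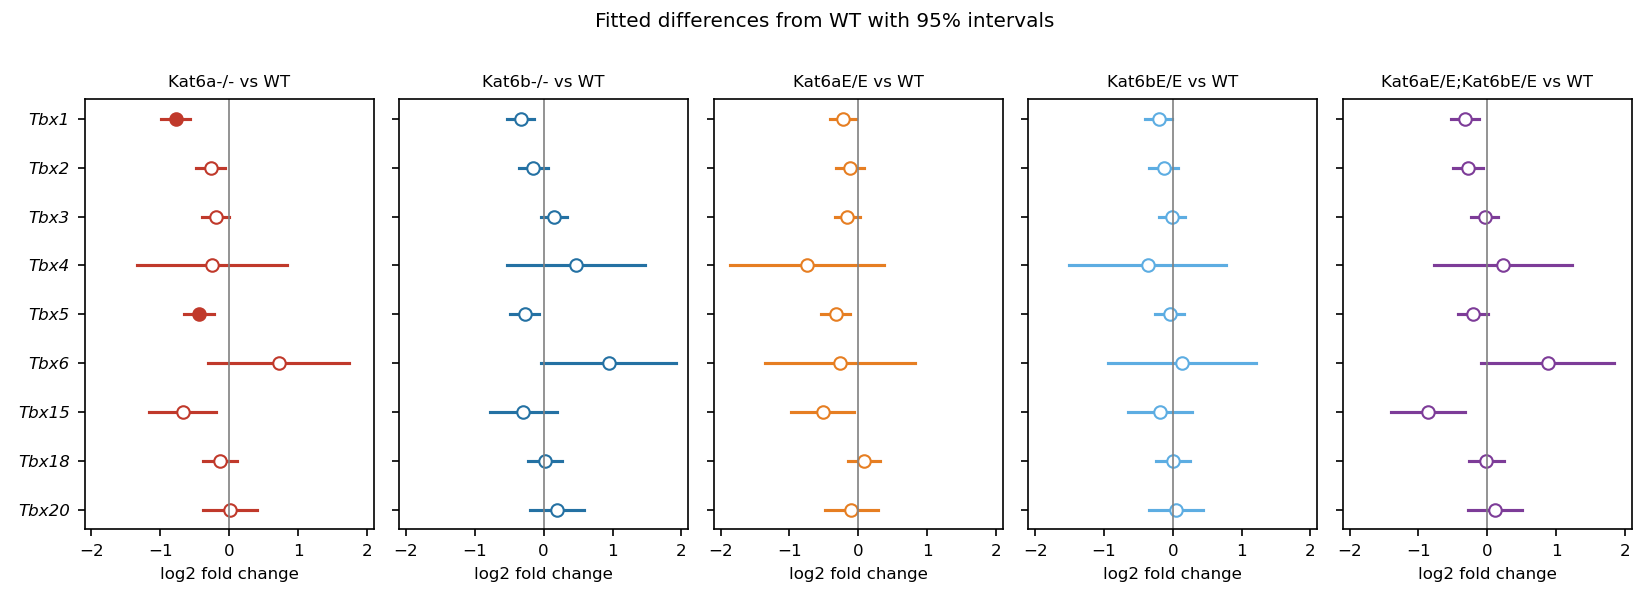
Fitted log2 fold change from WT (x axis) of each T-box gene (y axis) in the 5 mutant genotypes, with 95% confidence intervals from the limma fit and filled symbols for FDR < 0.05. Only *Tbx1* (-0.77) and *Tbx5* (-0.44) in *Kat6a-/-* embryos are filled, and the intervals of *Tbx4* and *Tbx6* are the widest.

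*Tbx1*, which is needed for the pharyngeal arches, the outflow tract and the second heart field, and whose human orthologue lies in the region deleted in DiGeorge syndrome, was the member lowered most clearly. In WT embryos it was at 25.8, 25.3, 24.5 and 31.8 CPM in replicates 1 to 4. In *Kat6a-/-* embryos it was at 12.5, 17.7, 14.1 and 12.97 CPM. All 4 *Kat6a-/-* libraries were below all 4 WT libraries, as were those of 6.49% of all genes. The means were 14.3 ± 2.33 and 26.8 ± 3.33 CPM (SD, n = 4 each), and the fitted log2 fold change was -0.77 (SE 0.10, 95% CI -0.99 to -0.56, FDR = 0.000171), or 58.5% of the WT level. Without the 3 *Xist* libraries it was -0.95 (FDR = 2.1e-05), and without the 4 libraries low in posterior markers -0.83 (FDR = 0.000692).

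*Tbx1* was also the lowest-p member in *Kat6b-/-* embryos, without passing the threshold. Its levels there were 18.5, 22.5, 18.9 and 24.5 CPM, all below the lowest WT library, though replicate 4 only narrowly so (3.44% of all genes were lower without overlap). The log2 fold change was -0.34 (SE 0.10, FDR = 0.121), and it was -0.29 (FDR = 0.419) without the 3 *Xist* libraries, of which *Kat6b-/-* replicates 2 and 3 are 2. The direct comparison of the null embryos placed *Tbx1* lower in *Kat6a-/-* than in *Kat6b-/-* embryos, with a log2 fold change of -0.44 (SE 0.11, 95% CI -0.66 to -0.22, FDR = 0.0364), again without overlap (5.77% of all genes). It was the 1 member called in that comparison, which called 1.64% of all genes, and 2 members, *Tbx1* and *Tbx3*, had an unadjusted p under 0.05 (17.3%). All 9 members had a log2 fold change under 0 in it, as had 50.9% of all genes. Without the 3 *Xist* libraries, all from these 2 genotypes, the difference in *Tbx1* was -0.66 and was not called (FDR = 0.0975). The call was also lost when any 1 of *Kat6a-/-* replicates 1, 3 and 4 or *Kat6b-/-* replicates 2, 3 and 4 was left out, with differences of -0.50 to -0.37 and FDRs of 0.0651 to 0.137. Leaving out WT replicate 4, which enters only through the shared model, also lost it.

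In embryos that carried KAT6A protein with the G656E change, the mean level of *Tbx1* lay between those of *Kat6a-/-* and WT embryos. The *Kat6aE/E* libraries were at 18.7, 20.7, 26.8 and 26.3 CPM, of which replicates 3 and 4 were within the WT range. Replicates 2 and 4 are low in posterior markers, and over the 4 libraries low in them *Tbx1* was 20.7 to 31.8 CPM (median 28.4), against 12.5 to 26.8 CPM (median 20.8) in the other 20. The other 20 hold all *Kat6a-/-*, *Kat6b-/-* and double mutant libraries, so this contrast over all libraries cannot be told apart from genotype. Within *Kat6aE/E* embryos the 2 kinds of library overlapped in *Tbx1*. In WT embryos the low library was the highest for *Tbx1* (31.8 against 24.5 to 25.8 CPM). The same held in *Kat6bE/E* embryos (30.4 against 18.3 to 22.8 CPM). The part of these libraries in the *Tbx1* values was not tested. From WT, *Tbx1* in *Kat6aE/E* embryos differed by -0.22 (SE 0.09, 95% CI -0.41 to -0.03, FDR = 0.408), and without the 4 libraries low in posterior markers by -0.13 (FDR = 0.925). Set directly against the null, *Tbx1* was higher in *Kat6aE/E* than in *Kat6a-/-* embryos by 0.55 (SE 0.11, 95% CI 0.33 to 0.77, FDR = 0.00893), with no overlap between the groups (4.1% of all genes were higher without overlap). Without the 4 libraries low in posterior markers the difference was 0.70 (FDR = 0.00830), and without the 3 *Xist* libraries it was 0.75 (FDR = 0.000744). It was the 1 member called in this comparison, which called 1.6% of all genes, and the 1 with an unadjusted p under 0.05 (15.6%). In the other 8 members the difference was not called, and the interval for *Tbx5* was -0.12 to 0.34, with a value of -0.13 without the *Xist* libraries.

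The *Kat6b* point mutation gave similar values in *Tbx1*. The *Kat6bE/E* libraries were at 18.3, 20.6, 30.4 and 22.8 CPM, and only replicate 3, which is 1 of the 4 libraries low in posterior markers, was within the WT range. It differed from WT by -0.20 (95% CI -0.40 to -0.0044, FDR = 0.998), and without the 4 libraries by -0.31 (FDR = 0.564). In *Kat6aE/E;Kat6bE/E* embryos *Tbx1* was at 20.9, 22.1, 18.5 and 22.5 CPM, all below WT (3.94% of all genes were lower without overlap). The fitted log2 fold change was -0.33 (SE 0.10, FDR = 0.0705), and without the 3 *Xist* libraries it was -0.35 and was called (FDR = 0.0472). It was also called when 1 library outside the comparison, *Kat6a-/-* replicate 2, *Kat6aE/E* replicate 1 or 3, or *Kat6bE/E* replicate 3 or 4, was left out of the shared model.

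The double mutant was set against each single *Kat6a* genotype. Against *Kat6a-/-* embryos 0 members were called (0.00705% of all genes, 1 gene) by limma, and 2 (*Tbx1* and *Tbx5*) had an unadjusted p under 0.05 (10.4%). *Tbx1* was 0.45 higher in the double mutant (95% CI 0.22 to 0.67, FDR = 0.162), without overlap (3.44% of all genes), and DESeq2 called it. *Tbx5* was 0.23 higher (FDR = 0.474), and 0.10 higher without the *Xist* libraries (FDR = 0.868). Against *Kat6aE/E* embryos 0 members were called (0.141% of all genes), and the interval of the difference in *Tbx1* was -0.32 to 0.12. Between *Kat6bE/E* and *Kat6b-/-* embryos 0 members were called as well (0.0353% of all genes), with *Tbx1* between -0.08 and 0.34 (-0.04 without the 4 libraries low in posterior markers). In each of these last comparisons 1 member had an unadjusted p under 0.05 (9.89% and 8.83% of all genes in turn), and edgeR's quasi-likelihood test and DESeq2 also called 0.

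Only 3 mutant embryos had a WT littermate in the data, which gives a view of *Tbx1* within litters but no test. *Kat6a-/-* replicate 2 had 68.5% of the *Tbx1* level of its WT littermate, *Kat6aE/E* replicate 1 had 74.0% and *Kat6b-/-* replicate 2 had 91.5%. For *Tbx5* the same pairs gave 66.8%, 81.7% and 71.9%. The mutants *Kat6a-/-* replicate 2 and *Kat6b-/-* replicate 2 are among the *Xist* libraries, and their WT littermates are not.

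*Tbx5*, an activator of cardiac chamber genes that is also required to start the forelimb bud, was the other member called in *Kat6a-/-* embryos. It was at 15.3, 19.6, 21.3 and 23.9 CPM in WT embryos. In *Kat6a-/-* embryos it was at 14.9, 10.2, 15.95 and 18.4 CPM. The groups overlapped: WT replicate 1 was below *Kat6a-/-* replicates 3 and 4. The fitted log2 fold change was -0.44 (SE 0.11, 95% CI -0.66 to -0.22, FDR = 0.0263), or 73.8% of WT. The call rested on few embryos. Without *Kat6a-/-* replicate 2, the lowest library and 1 of the 3 with *Xist*, it was -0.26 (FDR = 0.328), without the 3 *Xist* libraries -0.22 (FDR = 0.386), and without the 4 libraries low in posterior markers -0.42 (FDR = 0.0555). It was also lost without WT replicate 2 (-0.42, FDR = 0.0757), WT replicate 3 (-0.38, FDR = 0.0931), WT replicate 4 (-0.37, FDR = 0.101) or *Kat6a-/-* replicate 3 (-0.46, FDR = 0.0502).

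In the other genotypes *Tbx5* was below WT by amounts that were not called. The log2 fold changes were -0.28 in *Kat6b-/-* (FDR = 0.248), -0.33 in *Kat6aE/E* (FDR = 0.222), -0.04 in *Kat6bE/E* (FDR = 0.998) and -0.21 in *Kat6aE/E;Kat6bE/E* embryos (FDR = 0.303). Without the 3 *Xist* libraries, of which 2 are *Kat6b-/-*, the difference in *Kat6b-/-* embryos was -0.02 (FDR = 0.980). The *Kat6aE/E* libraries lay close together at 16.04, 14.8, 13.6 and 17.2 CPM, below WT except for WT replicate 1. *Tbx5* was the 1 member with an unadjusted p under 0.05 between *Kat6bE/E* and *Kat6b-/-* embryos (0.23 higher, FDR = 0.545), and without the *Xist* libraries that difference was -0.03 (FDR = 0.972).

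*Tbx20*, which encodes a factor of cardiomyocytes and endocardium, was not called in any of the 10 comparisons, and the groups overlapped in all of them. In *Kat6a-/-* embryos it split widely, at 25.1, 21.9, 45.4 and 43.3 CPM, against 31.9, 27.4, 36.2 and 38.3 CPM in WT embryos. Replicates 1 and 2 were below every WT library and replicates 3 and 4 above every one. The fitted log2 fold change was 0.01 with an interval of -0.38 to 0.41, so a change within this interval was not detectable. Without the 3 *Xist* libraries, which include *Kat6a-/-* replicate 2, it was 0.31 (FDR = 0.229), and in *Kat6b-/-* embryos *Tbx20* moved from 0.19 to 0.58 (FDR = 0.131).

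*Tbx2* and *Tbx3* encode repressors of the chamber programme in the atrioventricular canal and outflow tract, and are also expressed in the limb buds. *Tbx2* was at 41.3, 45.5, 46.5 and 31.9 CPM in WT embryos and at 31.1, 31.5, 42.9 and 30.7 CPM in *Kat6a-/-* embryos, where it differed by -0.27 (95% CI -0.48 to -0.06, FDR = 0.166). The low WT value was replicate 4, a library low in posterior markers. In *Kat6aE/E;Kat6bE/E* embryos *Tbx2* was at 32.7, 38.4, 28.3 and 32.4 CPM and differed by -0.28 (95% CI -0.50 to -0.06, FDR = 0.146). *Tbx3* was at 39.6, 53.3, 51.0 and 40.2 CPM in WT and at 40.1, 38.7, 49.8 and 35.3 CPM in *Kat6a-/-* embryos, a difference of -0.19 (95% CI -0.39 to -0.0024, FDR = 0.288). Without the *Xist* libraries *Tbx2* differed by -0.16 (FDR = 0.500) in *Kat6a-/-* embryos.

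*Tbx3* was the second member by p between the 2 null genotypes. *Kat6b-/-* embryos had 50.9, 44.6, 54.1 and 51.8 CPM, and *Kat6a-/-* embryos were lower, with a difference of -0.35 (SE 0.09, FDR = 0.0568). It was called without *Kat6a-/-* replicate 3 (-0.42, FDR = 0.024) or without *Kat6b-/-* replicate 1 (-0.34, FDR = 0.0498), and also when WT replicate 1, any 1 *Kat6aE/E* library or *Kat6aE/E;Kat6bE/E* replicate 4 was left out of the shared model. An antisense RNA, *Tbx3os1*, shares 1468 exonic bases with *Tbx3*, and the library kit does not mark strand, so reads of the pair cannot be told apart. Opposite-strand genes also share exonic bases with *Tbx18* (995), *Tbx2* (668), *Tbx15* (336), *Tbx5* (194) and *Tbx1* (43). These genes were not among those counted, so their reads there could count to the member.

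*Tbx4*, a regulator of hindlimb outgrowth, and *Tbx6*, a regulator of the presomitic mesoderm, varied most, and with the posterior markers. *Tbx4* was at 10.6, 13.4, 17.2 and 0.482 CPM in WT embryos. *Kat6aE/E* embryos had 13.2, 1.64, 2.75 and 2.18 CPM and *Kat6bE/E* embryos 16.03, 10.2, 0.436 and 14.3 CPM. Over the 4 libraries low in posterior markers *Tbx4* was 0.436 to 2.18 CPM, against 2.75 to 19.8 CPM in the other 20, with no overlap. *Tbx6* was 0.590 to 1.41 CPM in the 4 and 1.30 to 11.9 CPM in the other 20, and *T*, the founding T-box gene, which marks the primitive streak, tail bud and notochord, was 1.21 to 3.02 against 4.67 to 33.1 CPM. What sets these libraries apart was not tested.

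**Figure D3:**
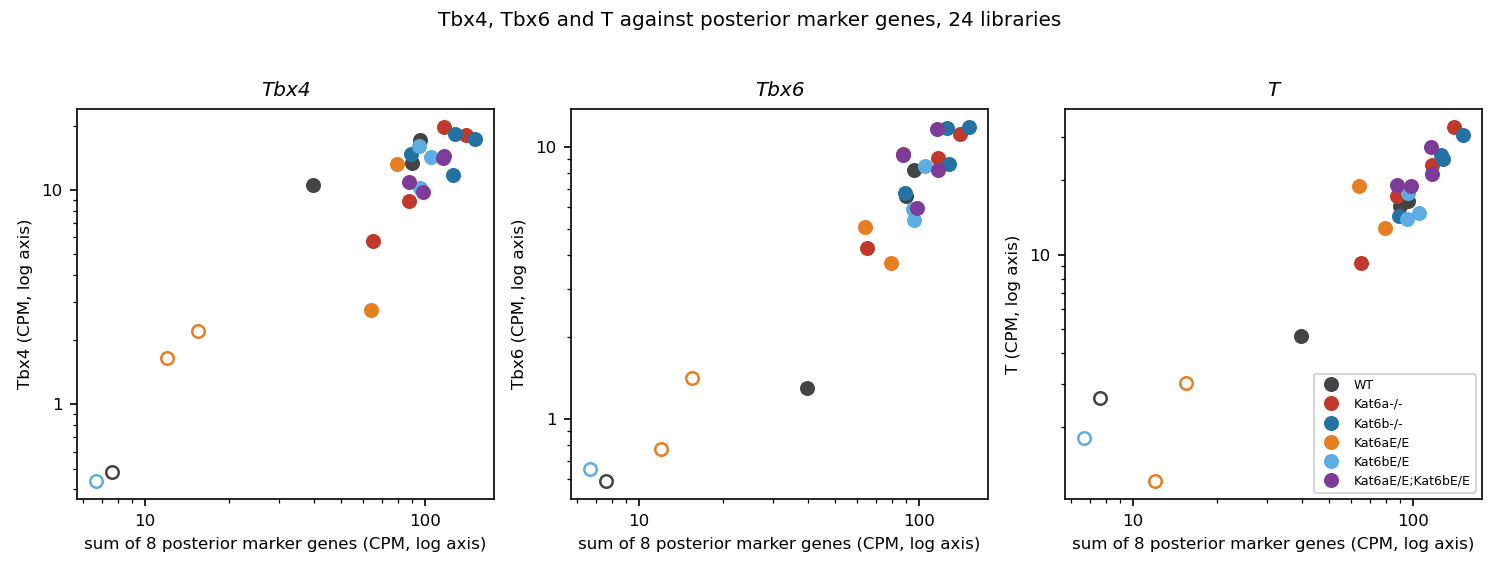
Levels of *Tbx4*, *Tbx6* and *T* (y axes, CPM on a log scale) against the summed level of 8 posterior marker genes (x axis, CPM on a log scale) in the 24 libraries, with colours for the genotypes and open points for the 4 libraries that stand apart. These 4, at 6.68 to 15.5 CPM of posterior markers, hold the lowest *Tbx4* values (0.436 to 2.18 CPM) and the lowest *T* values (1.21 to 3.02 CPM).

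Neither *Tbx4* nor *Tbx6* was called in a comparison. In *Kat6a-/-* embryos *Tbx4* differed from WT by -0.24 (95% CI -1.33 to 0.85), but its direction was not stable. The value was 0.47 without the *Xist* libraries and -0.38 without those low in posterior markers, and 12 of 23 alternatives had the sign of the reported value (-0.63 to 1.30). *Tbx6* differed by 0.72 (95% CI -0.31 to 1.74), and by 0.34 with the posterior marker level as a covariate. In *Kat6b-/-* embryos *Tbx6* was at 8.63, 11.7, 6.76 and 11.8 CPM and in WT embryos at 1.30, 6.60, 8.20 and 0.590 CPM, a fitted difference of 0.94 (95% CI -0.03 to 1.92, FDR = 0.430). With the same covariate that difference was 0.06 (FDR = 0.966). The covariate includes *Hoxa10* and *Cdx4*, which followed *Tbx4* and *Tbx6* at r = 0.978 and 0.941 in turn. It can therefore take out a difference between genotypes that these genes share with the members. *Tbx6* was the member with an unadjusted p under 0.05 between *Kat6aE/E;Kat6bE/E* and *Kat6aE/E* embryos. The double mutant was higher by 1.15 (95% CI 0.13 to 2.16, FDR = 0.435), without overlap (2.42% of all genes), and 2 of the 4 *Kat6aE/E* libraries are among those low in posterior markers. Without the 4 libraries that difference was 0.63 (FDR = 0.748), and with the covariate it was 0.25 (FDR = 0.843). In *Kat6aE/E* embryos *Tbx4* differed from WT by -0.74 (95% CI -1.87 to 0.38) and, without the 4 libraries, by -1.02 (FDR = 0.879).

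*Tbx15*, which acts in the limb skeleton and in the dermis, was the lowest member and showed the largest fitted decrease of the 9 in the double mutant. It was at 4.41, 6.002, 5.33 and 1.98 CPM in WT embryos and at 1.56, 2.20, 2.95 and 1.25 CPM in *Kat6aE/E;Kat6bE/E* embryos. The groups overlapped only through WT replicate 4, a library low in posterior markers. The fitted log2 fold change was -0.86 (SE 0.26, 95% CI -1.40 to -0.33, FDR = 0.0682). It was called without the 3 *Xist* libraries (-0.93, FDR = 0.0381) and with the posterior markers as a covariate (-0.93, FDR = 0.0304), but not without the 4 libraries low in these markers (-0.98, FDR = 0.0838). Without *Kat6aE/E;Kat6bE/E* replicate 3 it was -1.19 and was called (FDR = 0.0346). It was also called when *Kat6a-/-* replicate 2 or *Kat6aE/E* replicate 1 or 3 was left out of the shared model.

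In the single mutants *Tbx15* was not called. *Kat6a-/-* embryos had 2.91, 4.12, 2.97 and 1.498 CPM and differed from WT by -0.67 (95% CI -1.16 to -0.19, FDR = 0.127). In *Kat6aE/E* embryos the difference was -0.52 (FDR = 0.434), in *Kat6b-/-* embryos -0.29 (FDR = 0.663, or -0.45 without the libraries low in posterior markers) and in *Kat6bE/E* embryos -0.19 (FDR = 0.998). *Tbx15* had 20 to 101 read pairs per library, so counting error adds to the spread.

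*Tbx18*, which marks the epicardium and the anterior part of each somite, was not called in any of the 10 comparisons. It was at 15.7, 22.9, 18.2 and 23.6 CPM in WT and at 16.7, 15.5, 21.6 and 18.6 CPM in *Kat6a-/-* embryos, a difference of -0.14 (95% CI -0.38 to 0.11, FDR = 0.620), or -0.02 without the *Xist* libraries. Its means over the 6 genotypes ran from 18.1 CPM in *Kat6a-/-* to 21.9 CPM in *Kat6aE/E* embryos.

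The other T-box genes in the files gave no call. Of 8, *T*, *Mga* (a large factor with both a T-box and a MAX-binding domain) and *Tbx22* (a palate gene) passed the filter and 0 of these 3 were called in the 10 comparisons. In *Kat6a-/-* embryos *Tbx22* differed by -0.89 (SE 0.42, FDR = 0.280) and *Mga* by -0.09 (SE 0.15, FDR = 0.806). *Tbx22* was near the floor, with 2 to 9 read pairs per library in *Kat6a-/-* and 4 to 20 in WT embryos. *Eomes*, *Tbr1*, *Tbx10*, *Tbx19* and *Tbx21* had 0 to 14 read pairs per library and were not tested.

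Genes of the tissues in which *Tbx1* acts were set beside it. Of 16 pharyngeal and second heart field genes, 2 fell and 0 rose in *Kat6a-/-* embryos, 13 had a log2 fold change under 0, and the median was -0.17 against -0.0025 for all genes. The 2 were *Foxc2*, a mesodermal forkhead gene (-0.56, SE 0.10, FDR = 0.00352), and *Foxa2*, a gene of endoderm and floor plate (-1.03, SE 0.21, FDR = 0.0114). The summed level of the 16 was 490 to 538 CPM in *Kat6a-/-* and 576 to 603 CPM in WT embryos. Their part in the *Tbx1* result was not tested. *Foxc2* also fell in *Kat6aE/E;Kat6bE/E* embryos (-0.37, FDR = 0.0445), where the median of the 16 was -0.08, and 0 of the 16 were called in *Kat6b-/-*, *Kat6aE/E* or *Kat6bE/E* embryos. Between the null genotypes, *Foxc2* (-0.60), *Foxa2* (-0.99) and *Nkx2-6*, a pharyngeal homeobox gene (-0.77, FDR = 0.0401), were lower in *Kat6a-/-* embryos.

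Genes of the heart, limb bud and presomitic mesoderm follow, and no test compared these lists with each other. Of 16 heart chamber and atrioventricular canal genes 0 were called in *Kat6a-/-* embryos (median -0.05). *Nppb*, a natriuretic peptide gene, fell in *Kat6b-/-* embryos (-1.33, FDR = 0.0200), and *Mycn*, which supports growth of the ventricular wall, fell in *Kat6aE/E* embryos (-0.28, FDR = 0.0198) and was higher in the double mutant than there (0.31, FDR = 0.0356). Of 13 limb bud genes (median -0.04 in *Kat6a-/-* embryos), *Msx2* rose in *Kat6a-/-* embryos (0.35, FDR = 0.0319), and *Msx1* and *Msx2*, targets of BMP signalling, were lower in *Kat6aE/E* than in *Kat6a-/-* embryos (-0.48 each). Both were also higher in *Kat6a-/-* than in *Kat6b-/-* embryos (0.48 and 0.35). Of 9 presomitic genes tested *Lfng*, a Notch modifier, fell in *Kat6a-/-* embryos (-0.30, FDR = 0.00745). The list as a whole did not move that way: 4 of the 9 had a log2 fold change under 0, the median was 0.41 and the values ran from -0.30 to 1.30.

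Cell type markers gave the following context. Of 8 cardiomyocyte markers, *Tnni1* rose in *Kat6a-/-* (0.38, FDR = 0.0277) and *Tnnt2* in *Kat6aE/E;Kat6bE/E* embryos (0.36, FDR = 0.0415). Only 1 of the 8 was under 0 in each of these genotypes, with medians of 0.27 and 0.24 in turn. The median was 0.08 in *Kat6b-/-*, 0.17 in *Kat6aE/E* and 0.04 in *Kat6bE/E* embryos. The summed level of the 8 was 1084 to 1819 CPM in *Kat6a-/-* and 1033 to 1650 CPM in WT embryos. Of 5 somite markers, *Uncx*, a gene of the posterior part of each somite, fell in the double mutant (-1.003, FDR = 0.00557). All 5 were under 0 there (median -0.42), and the sum was 131 to 178 CPM against 170 to 186 CPM in WT. In *Kat6a-/-* embryos 4 of 5 were under 0 (median -0.15, sum 144 to 166 CPM). In *Kat6aE/E* embryos all 5 were (median -0.23, sum 120 to 178 CPM). The median was 0.09 in *Kat6b-/-* and -0.04 in *Kat6bE/E* embryos, and 0 were called in these 4 genotypes. In the double mutant the somite markers moved beside *Tbx15*, and their part in its values was not tested. *Uncx* was also lower in *Kat6a-/-* than in *Kat6b-/-* embryos (-0.66, FDR = 0.0409). Of 5 epicardial, 5 yolk sac endoderm and 5 red cell markers and the 1 trophoblast marker tested, 0 were called against WT. Yolk sac markers summed to 3.05 to 148 CPM over the 24 libraries, and between *Kat6aE/E* and *Kat6a-/-* embryos *Amn* (-1.99, FDR = 0.0101) and the trophoblast marker *Tfap2c* (-0.48, FDR = 0.0417) were lower in *Kat6aE/E*. The trophoblast genes *Tpbpa* and *Psg21* were at 0 in all 24 libraries. Of the 8 posterior markers 0 were called against WT, with a median of 0.25 in *Kat6a-/-*, 0.77 in *Kat6b-/-* and 0.61 in *Kat6aE/E;Kat6bE/E* embryos, where all 8 were above 0 in each. The median was -0.28 in *Kat6aE/E* embryos, with 7 of 8 under 0, and -0.07 in *Kat6bE/E* embryos. *Tbx4* differed from WT in the direction of these medians except in *Kat6a-/-* embryos (-0.24), and *Tbx6* except in *Kat6bE/E* embryos (0.14). In *Kat6b-/-* embryos *Tbx4* differed from WT by 0.47, but by -0.40 with the posterior marker level as a covariate, 0.01 without the 4 libraries low in these markers and 0.86 without the *Xist* libraries. The covariate holds genes that follow *Tbx4* closely, so it can take out a difference between genotypes that they share.

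The nearest tested genes beside the members were not called against WT in any genotype, apart from members that neighbour each other. Beside *Tbx1*, *Gnb1l* differed by 0.01 (FDR = 0.976) and *Septin5* by -0.14 (FDR = 0.409) in *Kat6a-/-* embryos. *Rbm19*, beside *Tbx5*, differed by -0.12 (FDR = 0.270).

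The genes whose log2 CPM followed each member most closely over the 24 libraries were found among all genes tested, as a description. For *Tbx1* they were *Cyp26c1*, which encodes a retinoic acid-degrading enzyme (Pearson r = 0.863), *Usp44* (0.834) and *Skida1* (0.833). Within genotypes, after the genotype means were removed, the values were 0.846, 0.724 and 0.513. For *Tbx5* they were the endothelial genes *Egfl7* (0.762), *Sox18* (0.751) and *Rasip1* (0.720). For *Tbx20* they were *Gata5* (0.858), *Mical2* and *Ccdc141*. *Tbx3* was nearest to *Isl1*, a LIM homeobox gene (0.841), *Tbx2* to *Ralgds* (0.854), *Tbx15* to *Epha3* (0.876) and *Tbx18* to *Zfp9* (0.705). *Tbx4* followed the posterior *Hox* genes *Hoxa10* (0.978), *Hoxa11* (0.956) and *Hoxd13* (0.954), and *Tbx6* followed *T* (0.963), *Naaa* (0.946) and *Cdx4* (0.941). Among the members the closest pairs were *Tbx4* with *Tbx6* (0.859) and *Tbx2* with *Tbx15* (0.752). The points share libraries, depth and the 4 libraries low in posterior markers.

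**Figure D4:**
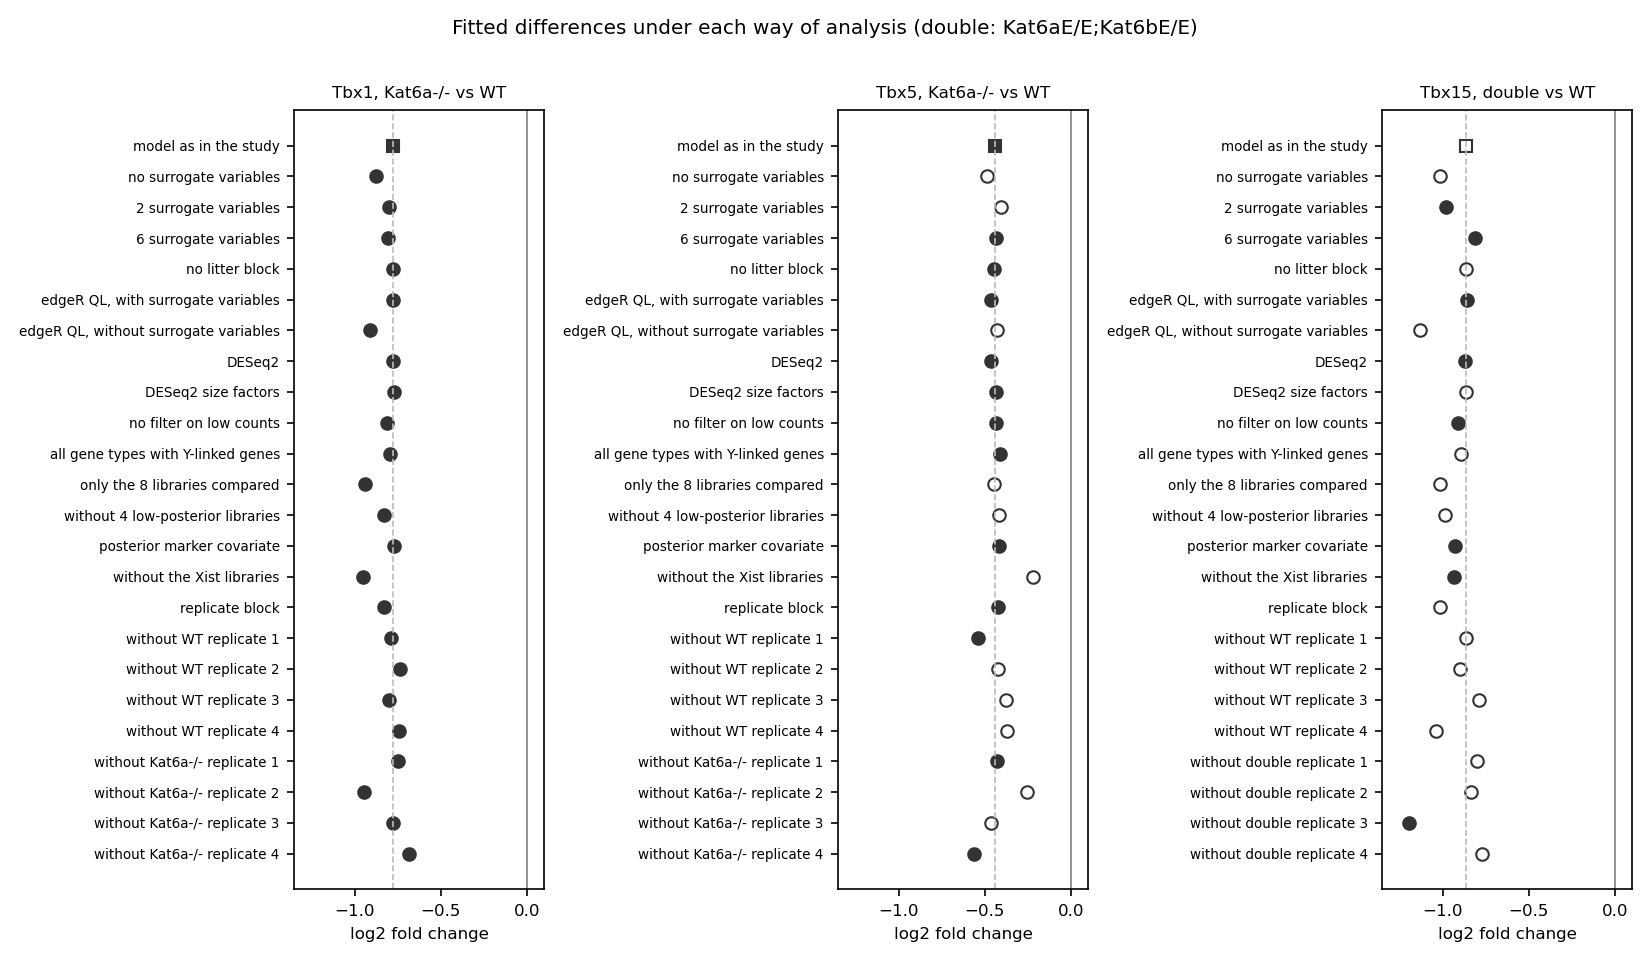
Log2 fold change (x axis) of *Tbx1* and *Tbx5* in *Kat6a-/-* embryos and of *Tbx15* in *Kat6aE/E;Kat6bE/E* embryos, each against WT, under the reported model (square) and 23 alternatives (circles, y axis), with filled symbols for FDR < 0.05 and a dashed line at the reported value. *Tbx1* in *Kat6a-/-* embryos stays filled between -0.95 and -0.69, whereas *Tbx5* is filled in 12 and *Tbx15* in 8 of 23 alternatives.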

How the data were processed

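RNA-seq libraries were made with the TruSeq RNA v2 kit, which does not mark strand. The authors aligned read pairs to mm39 with Rsubread and counted them over RefSeq genes with featureCounts, and the deposited files hold these raw counts per gene. The samples were grouped by the genotype in their titles. Gene types came from a RefSeq table that matched 26359 of 26411 gene IDs. Protein-coding genes without Y-linked genes were filtered with filterByExpr (14183 genes), scaled by TMM and fitted with voomLmFit (R 4.3.3, edgeR 4.0.16, limma 3.58.1) on genotype and 4 surrogate variables, with litter as a random block (correlation 0.107) and robust empirical Bayes. Genes were called at FDR < 0.05. CPM used TMM library sizes, and RPKM divided CPM by the gene length in the files. Alternatives included edgeR's quasi-likelihood test and DESeq2 1.42.0. The p-values measure the spread between these embryos that is left after the surrogate variables. Some embryos of the same genotype shared a litter.

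The 9 members and the gene lists were chosen with earlier results of these data known. The text names all members, the other T-box genes, *Kat6a* and *Kat6b*, the nearest tested gene on each side of a member, the 3 genes most correlated with it, and at most 4 called genes per list and comparison. On simulated counts for the comparison of *Kat6a-/-* with WT (14106 genes), 63.6% of changes of 0.5 and 83.0% of changes of 1 on the log2 scale were recovered, with 7 false calls. The 16 libraries of E14.5 fetal liver cells were not compared. Promoter windows came from GRCm39 and GENCODE vM39.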

Additional observations from a re-analysis of the deposited data

Results flagged for a closer look

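In 3 of the 54 groups of 4 libraries (9 members in 6 genotypes), 1 library lay far from the other 3, and chance alone flags about 1 in 20 groups. *Tbx2* was at 42.9 CPM in *Kat6a-/-* replicate 3, against 30.7 to 31.5 CPM in the other 3. *Tbx4* was at 13.2 CPM in *Kat6aE/E* replicate 1, against 1.64 to 2.75 CPM in the others, 2 of which are low in posterior markers. *Tbx20* was at 25.6 CPM in *Kat6aE/E* replicate 3, against 31.9 to 33.2 CPM.

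The effect on *Tbx1* differed between genotypes in 2 direct comparisons, both tested in the limma fit. It was 0.55 higher on the log2 scale in *Kat6aE/E* than in *Kat6a-/-* embryos (FDR = 0.00893, 4 of 4 libraries above all 4 of the null). It was -0.44 in *Kat6a-/-* relative to *Kat6b-/-* embryos (FDR = 0.0364, 4 of 4 libraries below). The first was called in 21 of 23 alternatives. The second was called in only 13 of 23, and in 2 of the 8 fits that left out 1 of its libraries.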

How the results depend on the processing

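For *Kat6a-/-* against WT, *Tbx1* was called in all 23 alternatives (-0.95 to -0.69, FDR up to 0.00847), while *Tbx5* was called in 12 of 23 (FDR 0.00782 to 0.386). The count of members called there was 1, not 2, with no surrogate variables, 2 surrogate variables, edgeR's quasi-likelihood test without surrogate variables, only the 8 libraries compared, without the libraries low in posterior markers and without the *Xist* libraries, and it ran from 1 to 2 when 1 library was left out. In the double mutant against WT it was 2 with 2 or 6 surrogate variables or without the *Xist* libraries, and 1 with edgeR's test with surrogate variables, DESeq2, no filter on low counts or the posterior marker covariate, and 0 to 1 with 1 of its 8 libraries left out. Leaving out 1 of the other 16 gave 2 for 3 of them, 1 for 2 and 0 for the rest. *Kat6aE/E* against *Kat6a-/-* gave 0 with no surrogate variables and with only the 8 libraries compared, and 1 to 1 with 1 library left out. The double mutant against *Kat6a-/-* gave 1 with 6 surrogate variables and with DESeq2. *Kat6a-/-* against *Kat6b-/-* gave 0 with no or 2 surrogate variables, with edgeR's test without them and without the *Xist* libraries, 2 with no litter block and with DESeq2, and 0 to 2 with 1 of its 8 libraries left out. Leaving out 1 of the other 16 changed that count for 7 of them, also to between 0 and 2. In the other 8 comparisons it changed no count of members. Over all genes, *Kat6a-/-* against WT gave 111 calls with no surrogate variables, 375 as reported and 631 with 6. With none, the double mutant against WT fell from 413 calls to 0, *Kat6b-/-* against WT from 72 to 0, *Kat6aE/E* against WT from 39 to 14, *Kat6aE/E* against *Kat6a-/-* from 227 to 61, and *Kat6a-/-* against *Kat6b-/-* from 232 to 27. The cause of these changes was not tested. Of 2070 alternative values of single members, 23 lost a call, 17 gained one, 0 reversed a call, and 135 changed sign while called in neither. The alternatives on posterior markers and *Xist* were chosen after seeing the data.

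Replicate numbers did not pair the samples: over 40 same-numbered pairs the correlation of deviations was -0.148 to 0.311, with 13 over 0.1. With the replicate block *Tbx1* was -0.83 (FDR = 0.000158) and *Tbx5* -0.42 (FDR = 0.0429) in *Kat6a-/-* embryos, and no call of a member changed.

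Low counts limit *Tbx15*, *Tbx4* and *Tbx6*, which had as few as 20, 6 and 9 read pairs in a library. The lowest counts of *Tbx4* and *Tbx6* were in *Kat6bE/E* replicate 3, which is low in posterior markers and held 14071000 read pairs. With 4 embryos a genotype, changes can be missed. On simulated counts only 63.6% of changes of 0.5 and 83.0% of changes of 1 on the log2 scale were recovered. Those counts held no litter effect and no sets of libraries that stood apart, so the shares need not hold for the real libraries.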

Other observations

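In the 16 libraries of sorted E14.5 fetal liver progenitor cells, which no comparison above used, *Tbx5* had 0 counts in all 16. *Tbx1*, *Tbx3*, *Tbx4*, *Tbx15*, *Tbx18* and *Tbx20* were at 0 in 9 to 15 of the 16 and reached at most 11 counts. *Tbx6*, a gene of the presomitic mesoderm in the embryo, was detected in all 16 (4 to 48 counts, median 11, at most 1.45 CPM), and *Tbx2* ran from 0 to 51 counts.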
